A study of Mus musculus with 28 samples.

Results

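Hippocampal gene expression of cbp+/- mice was compared with that of wild-type mice after trichostatin A (TSA) followed by exploration of an unfamiliar environment. The comparison used 6 of the 28 arrays of the series, 3 from wild-type mice and 3 from cbp+/- mice, chosen by their titles and paired by the replicate number in those titles. All animals were female C57/DBA F1 hybrids aged 3 months, and the wild-type mice were littermates of the cbp+/- mice. Both groups were injected intraperitoneally with TSA at 2.4 mg/kg, were placed 15 min later, 1 animal at a time, in a white plexiglas box with tubing and toys for 1 h, and were sampled 75 min after the injection. The labels give the genotype only as cbp+/-, and neither the allele nor the cells in which it acts are stated there. Each array held pooled hippocampal RNA of 3 to 4 mice per the design text, while the extraction protocol gives 4, which makes each replicate a pool; differences among animals within a pool are averaged out. The same contrast of genotypes was available, on other arrays, after novelty with vehicle (DMSO and saline), after TSA in standard housing (cage) and after vehicle in the cage, with 3 arrays per genotype in each.

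CBP, encoded by Crebbp, is a transcriptional coactivator and histone acetyltransferase that is recruited by CREB and many other transcription factors. TSA inhibits histone deacetylases, the enzymes that remove the acetyl groups that CBP and its paralog Ep300 add. Exploration of a new place activates hippocampal neurons and switches on immediate early genes such as Npas4, Fos and Arc, several of which are regulated through CREB. The comparison asks what difference between the genotypes is present when deacetylases are inhibited and the activity-dependent programme is running.

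Values are log2 expression values on which a difference of 1 is a doubling, and differences are cbp+/- minus wild type throughout. Array medians ran from 5.48 to 5.63. Neurons and glia of the hippocampus were represented in every array, for example by Wfs1, a marker of CA1 pyramidal neurons (7.69 or higher), Calb1, a calcium-binding protein of dentate granule cells (8.26 or higher), and Gad1, the GABA-synthesizing enzyme of interneurons (9.51 or higher). Same-numbered arrays of the genotypes deviated together from their group means (correlation over all genes 0.555 to 0.697), so the replicate number was kept as a block. Arrays with different numbers had -0.506 to -0.114. Deviations within a group sum to 0, so these negative values follow in part from the positive ones. Wild-type replicate 1 stood apart in choroid plexus markers. It had the highest of the 6 values for 16 of 16 markers, with a mean marker level of 6.15, and cbp+/- replicate 2 was raised as well, at 5.40, against 4.69 to 4.89 in the other 4 arrays. Ttr, the abundant choroid plexus transthyretin transcript, read 12.28 and 11.47 in these 2 arrays and 6.61 to 8.33 in the others.

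**Figure D1:**
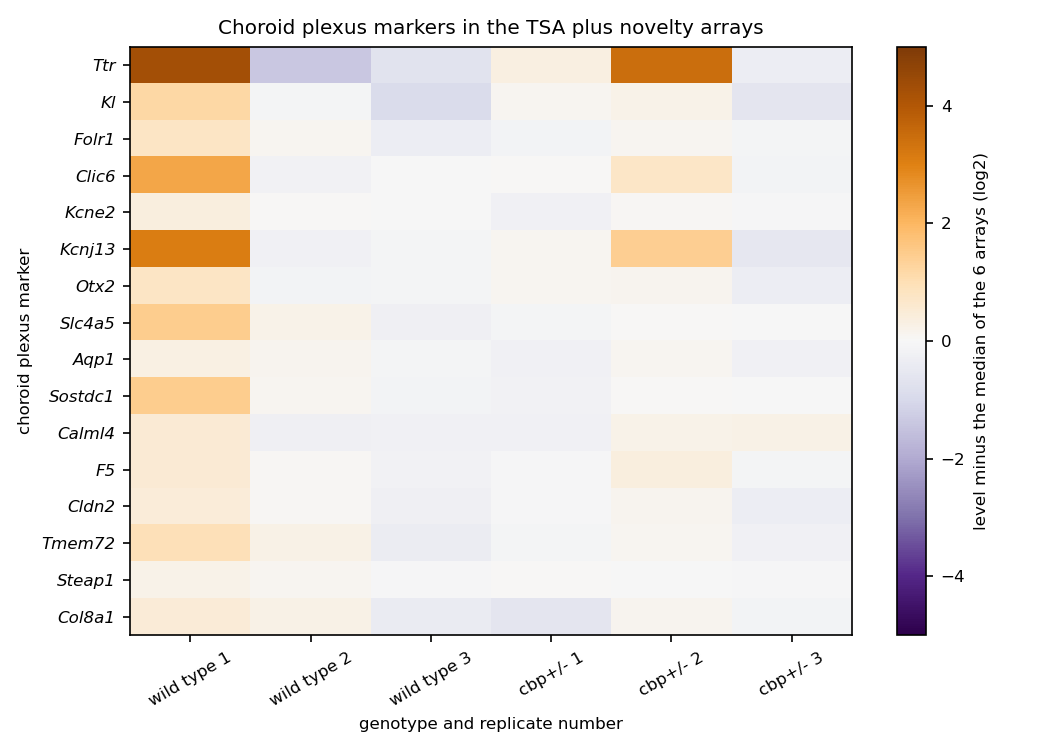
Level of 16 choroid plexus markers in each of the 6 arrays of TSA plus novelty, as the difference from the median of the 6 arrays (log2, colour scale), with markers as rows and arrays as columns. Wild-type replicate 1 is the highest array for 16 of 16 markers, and cbp+/- replicate 2 is raised in Ttr, Kcnj13 and Clic6.

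No gene passed the test between the genotypes after TSA plus novelty. Of 19938 named genes, 0 (0.0%) had an adjusted p under 0.05 with limma, the lowest adjusted p being 0.549. At an unadjusted p under 0.05 there were 1222 genes (6.13%), of which 500 were higher (2.51%) and 722 lower (3.62%) in cbp+/-. Lower values in cbp+/- were the more common, at 59.1% of all genes against 40.9% with higher values, and the median difference was -0.025. That excess depended on the normalization and the arrays: the share of lower genes was 50.6% (median -0.002) after a repeated quantile normalization, and 53.1% without replicate 2 against 62.0% without replicate 1. Lower values in 3 of 3 pairs were found for 15.2% of genes and higher values in 3 of 3 pairs for 10.6%. The arrays of the genotypes did not overlap for 2.75% of genes in the lower direction and 1.62% in the higher. The median standard error of a gene's difference was 0.105 and the median 95% interval reached 0.22 to either side. Differences below that size could not be resolved for a typical gene. The interval is that of a single gene without adjustment, and larger differences did not pass the adjusted test either. Differences of at least 0.5 with an unadjusted p under 0.05 numbered 30, and 1 gene differed by at least 1. The genes described next are therefore those with the smallest unadjusted p and 1 sign in 3 of 3 pairs, 15 in each direction, and none of them passed the adjusted threshold.

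Among the genes with lower values in cbp+/-, Rem2 had the smallest p. Rem2 is a small GTPase of the RGK family that inhibits voltage-gated calcium channels and is itself regulated by neuronal activity. Its level in wild-type arrays 1 to 3 was 6.67, 6.72 and 7.18, and in cbp+/- arrays 1 to 3 it was 6.44, 6.10 and 6.01. All 3 cbp+/- arrays lay below all 3 wild-type arrays, with a difference of -0.67 ± 0.13 (SE), or 1.59-fold (unadjusted p = 6.14e-05, adjusted p = 0.549). The pairs differed in size, from -0.23 in pair 1 to -1.17 in pair 3.

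Ccnd2 encodes cyclin D2, the G1 cyclin needed for the birth of new granule neurons in the adult dentate gyrus. Its wild-type arrays read 10.04, 10.03 and 10.06, an SD of 0.02, and its cbp+/- arrays read 9.79, 9.52 and 9.43. The difference was -0.46 ± 0.10 without overlap (adjusted p = 0.549), and the spread within cbp+/- (SD 0.19) was wider than within wild type. In wild type the mean was 9.50 ± 0.05 (SD, n = 3) in vehicle cage arrays, 9.76 ± 0.07 with TSA alone, 9.66 ± 0.05 with novelty alone and 10.04 ± 0.02 with both. The cbp+/- means were 9.28 ± 0.07, 9.64 ± 0.19, 9.46 ± 0.07 and 9.58 ± 0.19 in the same order. The mean with both treatments was thus the highest of the 4 in wild type and not in cbp+/-. The genotype difference with both treatments did not pass the test against that with novelty alone (gap -0.27, unadjusted p = 0.0636) or with TSA alone (gap -0.34, unadjusted p = 0.0195, adjusted p = 1).

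Camk1g, a calcium/calmodulin-dependent protein kinase of neurons, had wild-type levels of 7.96, 7.78 and 7.95 and cbp+/- levels of 7.78, 7.16 and 7.37. Its difference was -0.46 ± 0.10, with cbp+/- replicate 1 just reaching the lowest wild-type value. Pgf, a growth factor of the VEGF family, read 5.50, 5.37 and 5.56 in wild type and 5.11, 4.80 and 5.04 in cbp+/-, a difference of -0.50 ± 0.11 without overlap. Dnajb6, a chaperone of the Hsp40 type that suppresses protein aggregation, read 5.29, 5.66 and 5.76 in wild type and 4.86, 5.10 and 5.28 in cbp+/- (-0.49 ± 0.10). Pygm, the muscle-type glycogen phosphorylase, read 7.72, 7.56 and 7.11 in wild type and 7.35, 7.33 and 6.66 in cbp+/-. There the replicates spread more than the genotypes within each group, while every pair fell between -0.45 and -0.23, so the difference of -0.35 ± 0.08 rests on the pairing.

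The remaining 9 of the 15 lower genes had differences of -0.48 to -0.35. Kcnk4 (-0.48 ± 0.12) and Kcna1 (-0.38 ± 0.10) encode potassium channels, the leak channel TRAAK and a Shaker-type voltage-gated channel. Cntfr, the ligand-binding receptor of ciliary neurotrophic factor, differed by -0.44 ± 0.11. Cyp2d22, a cytochrome P450 (-0.44 ± 0.11), belongs to a family of related genes, and its probes may not separate it from all of them. Rrm2, the regulatory subunit of ribonucleotide reductase in dividing cells, differed by -0.47 ± 0.12 without overlap. Plin5, a lipid droplet protein (-0.39 ± 0.10), Pitpnm3, a membrane-associated phosphatidylinositol transfer protein (-0.41 ± 0.10), and Parvg, an adhesion adaptor of blood cells (-0.38 ± 0.10), followed. Cxcl2, a chemokine for neutrophils, read 3.52 to 3.63 in cbp+/- and 3.79 to 4.06 in wild type, which lies below the median of all tested genes (6.10) in every array. Of the 15 lower genes, 7 had arrays that did not overlap, against 2.75% of all genes in that direction. Genes chosen for small p-values and 1 sign in 3 of 3 pairs are more often of this kind, so the count is no test.

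**Figure D2:**
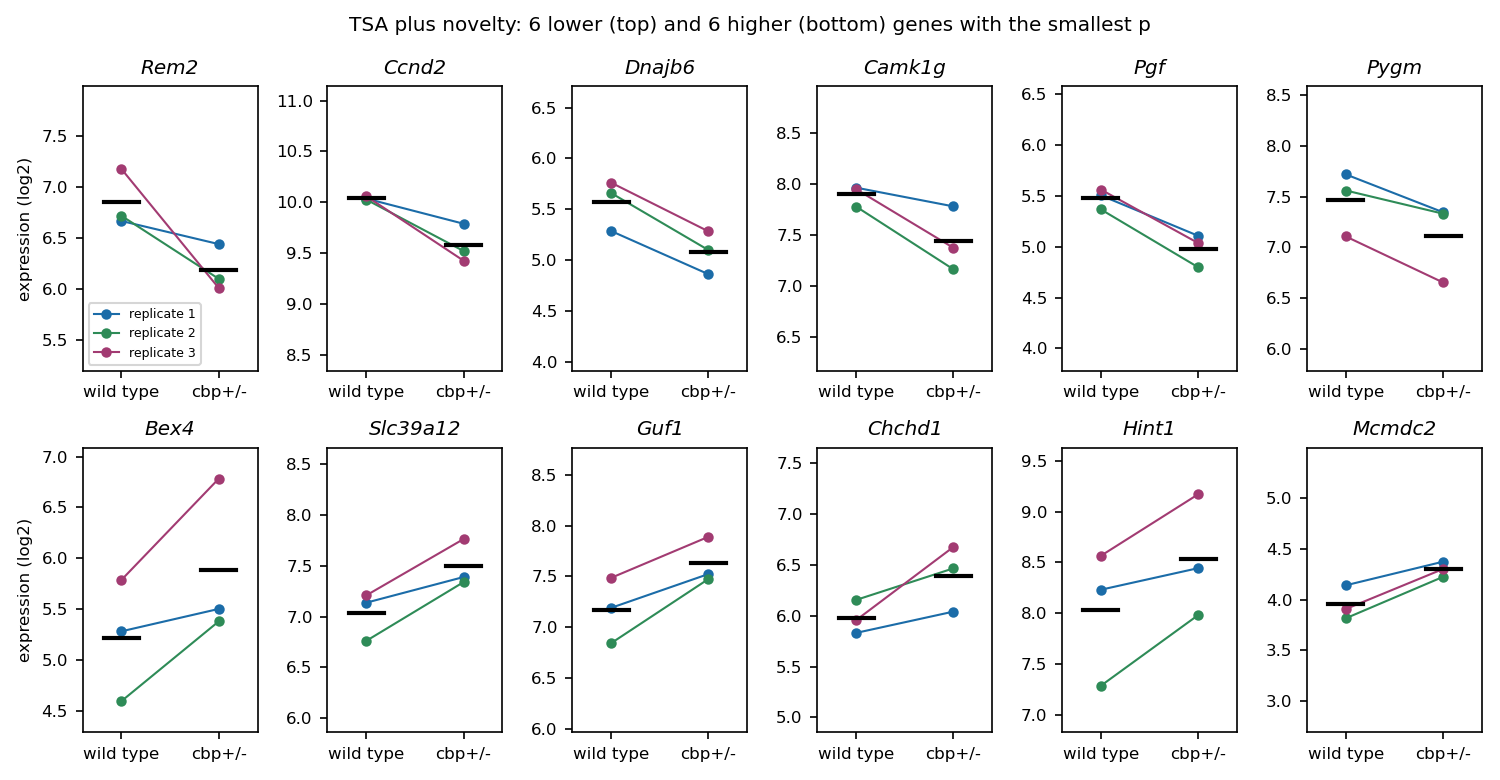
Expression (log2) in each array of the 6 lower and 6 higher genes with the smallest unadjusted p, wild type on the left and cbp+/- on the right of each panel; coloured lines join same-numbered arrays, and black bars are group means (n = 3). All panels span the same number of log2 units. Every line slopes down in the upper row and up in the lower row, while in Pygm and Hint1 the replicates differ from each other by more than the genotypes do.

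The largest difference among the higher genes was that of Rny1, a Y RNA bound by the Ro protein, at 1.24 ± 0.33 (2.37-fold, adjusted p = 0.741). Its wild-type arrays read 7.71, 6.24 and 7.34 and its cbp+/- arrays 8.22, 6.92 and 9.87. Pair 3 differed by 2.53 and pairs 1 and 2 by 0.51 and 0.69, so the size of the mean came largely from 1 pair, and Y RNA genes have near-identical copies. Bex1 and Bex4 are related, X-linked, brain-expressed genes. Bex4 read 5.28, 4.60 and 5.79 in wild type and 5.50, 5.38 and 6.78 in cbp+/-, a difference of 0.67 ± 0.14 (1.59-fold, adjusted p = 0.549). For Bex1 the arrays were 6.86, 6.37 and 8.11 in wild type and 7.36, 7.48 and 8.77 in cbp+/-, a difference of 0.76 ± 0.19. In both genes replicate 3 was the highest array of each genotype, and the groups overlapped. Tceal6, of the neighbouring X-linked Tceal family, differed by 0.40 ± 0.10.

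Slc39a12, a zinc transporter, was higher without overlap, at 7.39, 7.34 and 7.76 in cbp+/- against 7.14, 6.76 and 7.21 in wild type (0.46 ± 0.10, adjusted p = 0.566). Hint1, a histidine triad nucleotide hydrolase, read 8.23, 7.29 and 8.57 in wild type and 8.44, 7.98 and 9.17 in cbp+/- (0.50 ± 0.12). Guf1, a mitochondrial translation factor, and Chchd1, a protein of the mitochondrial ribosome, differed by 0.46 ± 0.11 and 0.41 ± 0.10. Ncl, the nucleolar protein nucleolin, differed by 0.36 ± 0.10, and Nemf, a factor of ribosome quality control, by 0.31 ± 0.09. Chmp2b, a subunit of the ESCRT-III complex, differed by 0.34 ± 0.09 and Nae1, a subunit of the NEDD8-activating enzyme, by 0.41 ± 0.11. Fundc2, an outer mitochondrial membrane protein, and Ythdc2, an RNA helicase that binds methylated RNA, were higher without overlap by 0.43 ± 0.12 and 0.35 ± 0.10. Mcmdc2, a meiotic recombination factor with a level of 3.82 to 4.37, was higher without overlap by 0.34 ± 0.08. Of the 15 higher genes, 4 had arrays that did not overlap, against 1.62% of all genes in that direction, and the same choice applies to them. Of the 30 genes, 7 had a mean level under the median of all tested genes (6.10).

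The same 30 genes were followed in the other conditions. The p-values that chose them came from the fit over 18 arrays, so novelty with vehicle and TSA in the cage had set part of the residual variance behind the choice, and the values there are a description with no test. After novelty with vehicle 25 of 30 differences had the sign seen with TSA plus novelty, against 53.2% of all genes. With TSA in the cage the count was 26 of 30, against 61.1%, and with vehicle in the cage 24 of 30, against 57.6%. The differences were smaller there: the 15 lower genes had a median of -0.44 after TSA plus novelty and -0.22, -0.12 and -0.14 in the other conditions in this order, and the 15 higher genes had 0.41 against 0.07, 0.13 and 0.17. Genes named for small p-values in 1 condition are picked in part for large values there, so this decline is no test of a difference. Pygm had -0.44 after novelty with vehicle, -0.12 with TSA in the cage and -0.19 with vehicle in the cage. In the same order Camk1g had -0.35, -0.18 and -0.14, Pgf -0.22, -0.24 and -0.17, and Rem2 -0.31, -0.26 and -0.08. Over all genes, 0 of 19938 passed for the average of novelty with vehicle and TSA in the cage (limma, lowest adjusted p 0.154, with 1061 genes, or 5.32%, at an unadjusted p under 0.05). In the single conditions 0 genes passed too, with 6.30% of genes at an unadjusted p under 0.05 after novelty with vehicle (lowest adjusted p 0.0912), 5.78% with TSA in the cage (0.816) and 5.80% with vehicle in the cage (0.679). Across all genes the differences after TSA plus novelty correlated at 0.17 with those after novelty and vehicle, at 0.34 with those under TSA in the cage and at 0.23 with those under vehicle in the cage (Pearson), values that describe genes and not replicates.

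**Figure D3:**
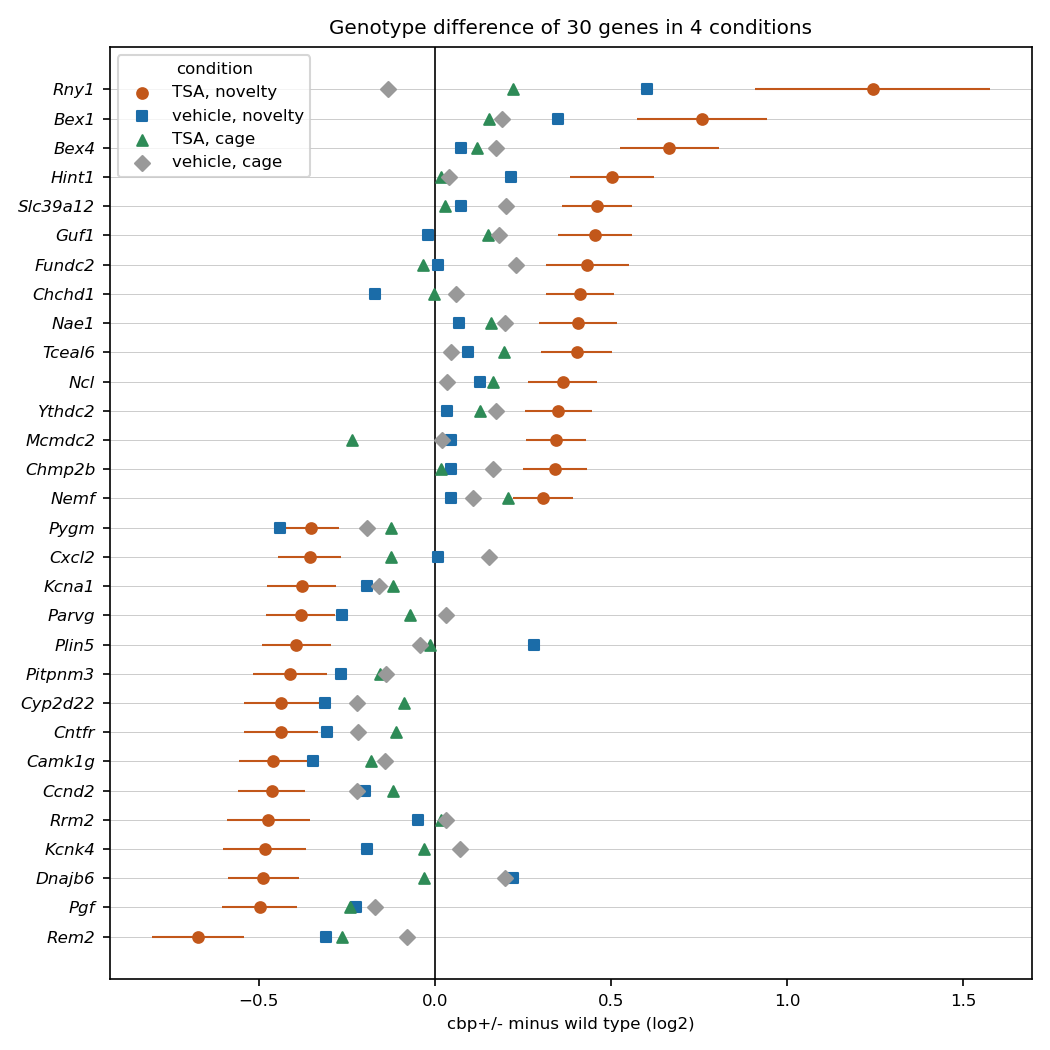
Genotype difference (cbp+/- minus wild type, log2) of the 30 named genes after TSA plus novelty (circles with SE bars from the fit over 18 arrays) and in the 3 other conditions (symbols). Most symbols lie on the same side of 0 as the circle and nearer to 0, and Dnajb6, Plin5 and Cxcl2 are among those that do not.

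Neither test of a dependence on treatment was passed by any gene. For the difference between the genotype contrast with TSA and with vehicle during novelty, 0 of 19938 genes (0.0%) were called with limma, and 883 (4.43%) had an unadjusted p under 0.05 (lowest adjusted p 0.758). The 3 named genes with the smallest p were Dnajb6, Plin5 and Trp53tg5, the last a p53-regulated gene. The difference of Dnajb6 was -0.49 with TSA and 0.22 with vehicle, a gap of -0.71 (unadjusted p = 9.07e-05). Its levels after TSA plus novelty were 4.86 to 5.76, under the median of all tested genes (6.10). Plin5 had -0.39 with TSA and 0.28 with vehicle (gap -0.67), and Trp53tg5 had -0.27 and 0.37 (gap -0.65). For the difference between novelty and cage under TSA, 0 genes (0.0%) were called and 480 (2.41%) had an unadjusted p under 0.05 (lowest adjusted p 1). The smallest p-values there were those of Mcmdc2 (gap 0.58), Psg27, a pregnancy-specific glycoprotein gene (gap 0.49), and Cldn9, a tight junction claudin (gap 0.48). These 3 had levels under the median of all genes in the 6 arrays.

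Crebbp was not lower in the cbp+/- arrays. Its levels were 9.51, 9.48 and 8.80 in wild type and 9.70, 9.66 and 8.97 in cbp+/-, higher in 3 of 3 pairs by 0.17 to 0.19. The fitted difference was 0.18 ± 0.13 (95% interval -0.08 to 0.44, adjusted p = 0.837). Mean Crebbp levels in cbp+/- and wild type were 9.45 and 9.30 after novelty with vehicle. They were 9.52 and 9.10 with TSA in the cage, and 9.46 and 9.33 with vehicle in the cage. No label says whether the probes cover the altered part of Crebbp, and its level therefore does not check the genotypes. Ep300, the paralog of CBP, was higher in 3 of 3 pairs as well, at 8.75, 8.52 and 7.82 against 8.62, 8.31 and 7.71 (0.15 ± 0.11). Of 15 coactivators and acetyltransferases, 12 were higher (40.9% of all genes) and 3 lower, with a median of 0.099 against -0.025 over all genes, and none had an unadjusted p under 0.05. Without replicate 2 the median was 0.032, with 9 higher. After novelty with vehicle 9 of the 15 were lower (median -0.034), against 46.8% of all genes. With TSA in the cage 0 were lower (0.132, against 53.5%), and with vehicle in the cage 4 (0.08, against 50.3%). Kat2b, the acetyltransferase PCAF, was higher without overlap (0.19 ± 0.12), and Clock, a circadian factor with acetyltransferase activity, differed by 0.14 ± 0.10. Kat5 differed by 0.16 ± 0.10 and Ncoa3, a nuclear receptor coactivator, by -0.14 ± 0.09. Among 13 genes of the CREB family and its CRTC coactivators the median was 0.060, with Atf1 and Crtc1 at -0.17 ± 0.10 each. Creb5 (0.20 ± 0.10) and Crebl2 (0.17 ± 0.09) were higher without overlap, against 1.62% of all genes. Creb5 lay under the median level of all tested genes (6.10). Its cbp+/- mean was below that of wild type after novelty with vehicle (5.72 against 5.75). The same held with TSA (5.72 against 5.84) and with vehicle in the cage (5.74 against 5.96). The targets of TSA, the 11 deacetylases of class I, II and IV, had a median of -0.041. Of these, 8 were lower and 3 higher, against 59.1% and 40.9% of all genes. Hdac11 had the smallest p, at -0.27 ± 0.13 (unadjusted p = 0.044), and the class I enzymes Hdac1 and Hdac2 differed by 0.10 ± 0.09 and 0.19 ± 0.15.

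The closest 53 measured genes to Crebbp on chromosome 16, 13 towards the start of the chromosome and 40 on the other side, had a median of -0.075. Of these, 38 were lower and 15 higher, against 59.1% and 40.9% of all genes. At an unadjusted p under 0.05 there were 5 lower and 1 higher, against 3.62% and 2.51% of all genes. The pair medians were 0.021, -0.117 and -0.111. After novelty with vehicle 29 of 53 were lower (median -0.014), against 46.8% of all genes. With TSA in the cage 29 were lower (-0.017, against 53.5%), and with vehicle in the cage 25 (0.006, against 50.3%). Emp2, a tetraspan membrane protein and the most distant of the 40, differed by -0.46 ± 0.14, with cbp+/- replicate 1 (7.01) equal to its wild-type partner (7.01). Pam16, a subunit of the mitochondrial import motor and the fifth gene on that side, differed by 0.30 ± 0.09. Tmem114 (-0.36 ± 0.12) and Nagpa, an enzyme of lysosomal targeting (-0.23 ± 0.09), were lower without overlap.

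Genes induced by neuronal activity mostly had lower values in cbp+/-. Of 27 immediate early transcription factors, 23 were lower, against 59.1% of all genes, with a median of -0.129 against -0.025, and 3 were lower at an unadjusted p under 0.05, against 3.62% of all genes. The median was 0.037 in pair 1, -0.204 in pair 2 and -0.303 in pair 3, and it was -0.043 without replicate 3 and -0.212 without replicate 1. Without wild-type replicate 3 alone it was -0.019, with 17 lower. The lower values were not particular to TSA plus novelty. With TSA in the cage 23 of 27 were lower (median -0.113), against 53.5% of all genes. With vehicle in the cage 20 were lower (-0.066, against 50.3%), and after novelty with vehicle 18 (-0.041, against 46.8%). Npas4, a transcription factor selectively induced by neuronal activity, had the smallest p of the list. Its levels were 8.14, 7.47 and 7.50 in wild type and 7.87, 7.12 and 6.90 in cbp+/-. Each pair was lower (-0.27, -0.35 and -0.60), although the groups overlapped, and the difference was -0.41 ± 0.13 (95% interval -0.67 to -0.14, unadjusted p = 0.00489, adjusted p = 0.741). After novelty with vehicle the difference was -0.37, while in the cage it was -0.08 with TSA and 0.06 with vehicle. The wild-type mean of Npas4 was 5.97 ± 0.35 (SD, n = 3) in vehicle cage arrays, 7.75 ± 0.18 after novelty with vehicle and 7.70 ± 0.38 after TSA plus novelty, against 6.03 ± 0.45, 7.38 ± 0.34 and 7.30 ± 0.51 in cbp+/-. The interval for a change of the genotype difference between cage and novelty under TSA included 0 (-0.32 ± 0.18, unadjusted p = 0.0874).

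The other immediate early transcription factors differed less. Cebpb, a bZIP factor induced by cAMP, read 6.66, 7.12 and 7.15 in wild type and 6.40, 6.87 and 6.65 in cbp+/- (-0.34 ± 0.12, unadjusted p = 0.00986). Maff, a small Maf protein, differed by -0.26 ± 0.12. Of the AP-1 genes, Fos read 6.35, 6.89 and 7.17 in wild type and 6.47, 6.63 and 6.75 in cbp+/- (-0.19 ± 0.20), Fosb differed by -0.25 ± 0.16 and Junb by -0.02 ± 0.11. The zinc finger genes Egr1, Egr2 and Egr4 differed by -0.06 ± 0.13, -0.10 ± 0.16 and -0.18 ± 0.18. The orphan nuclear receptor genes Nr4a1 and Nr4a2 were lower in 3 of 3 pairs (-0.26 ± 0.14 and -0.19 ± 0.10), and Nr4a3 was the exception at 0.10 ± 0.10. For Egr1 the difference turned positive without replicate 3 (0.14) and for Egr2 without replicate 2 (0.03).

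Effector genes, whose products act at synapses or feed back on signalling, followed the same pattern over the pairs. Of 37 measured, 27 were lower (59.1% of all genes), with a median of -0.128, which was -0.033 without replicate 3 and -0.037 without wild-type replicate 3 alone. Dusp1, the phosphatase that switches off MAP kinases, had levels of 8.89, 8.04 and 8.77 in wild type and 8.75, 7.71 and 7.56 in cbp+/-. Its difference was -0.56 ± 0.23 (1.47-fold, unadjusted p = 0.0235, adjusted p = 0.791), made up of -0.14, -0.33 and -1.21 in the 3 pairs, and the other conditions gave -0.72 after novelty with vehicle, -0.36 with TSA in the cage and -0.19 with vehicle in the cage. Vgf, a secreted neuropeptide precursor, read 7.84, 7.65 and 7.73 in wild type and 7.66, 7.14 and 7.44 in cbp+/-, with cbp+/- replicate 1 alone inside the wild-type range (-0.32 ± 0.10, unadjusted p = 0.00309). Sik1, a CREB-induced kinase that restrains CRTC coactivators, read 8.05, 7.60 and 7.68 against 8.03, 7.27 and 6.96, with pairs at -0.02, -0.33 and -0.73. Rasl11a and Nptx2, the latter a secreted pentraxin that clusters glutamate receptors, both differed by -0.28. Arc, a cytoskeletal regulator of synaptic plasticity, read 9.97, 9.66 and 9.86 in wild type and 9.91, 9.69 and 9.32 in cbp+/- (-0.19 ± 0.12). Bdnf, a neurotrophin, differed by -0.08 ± 0.09, Inhba, an activin subunit, by -0.22 ± 0.15, Gadd45b by -0.19 ± 0.14, Per1 by -0.17 ± 0.14, Dio2, the thyroid hormone-activating deiodinase, by -0.13 ± 0.11 and the scaffold gene Homer1 by 0.11 ± 0.11.

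**Figure D4:**
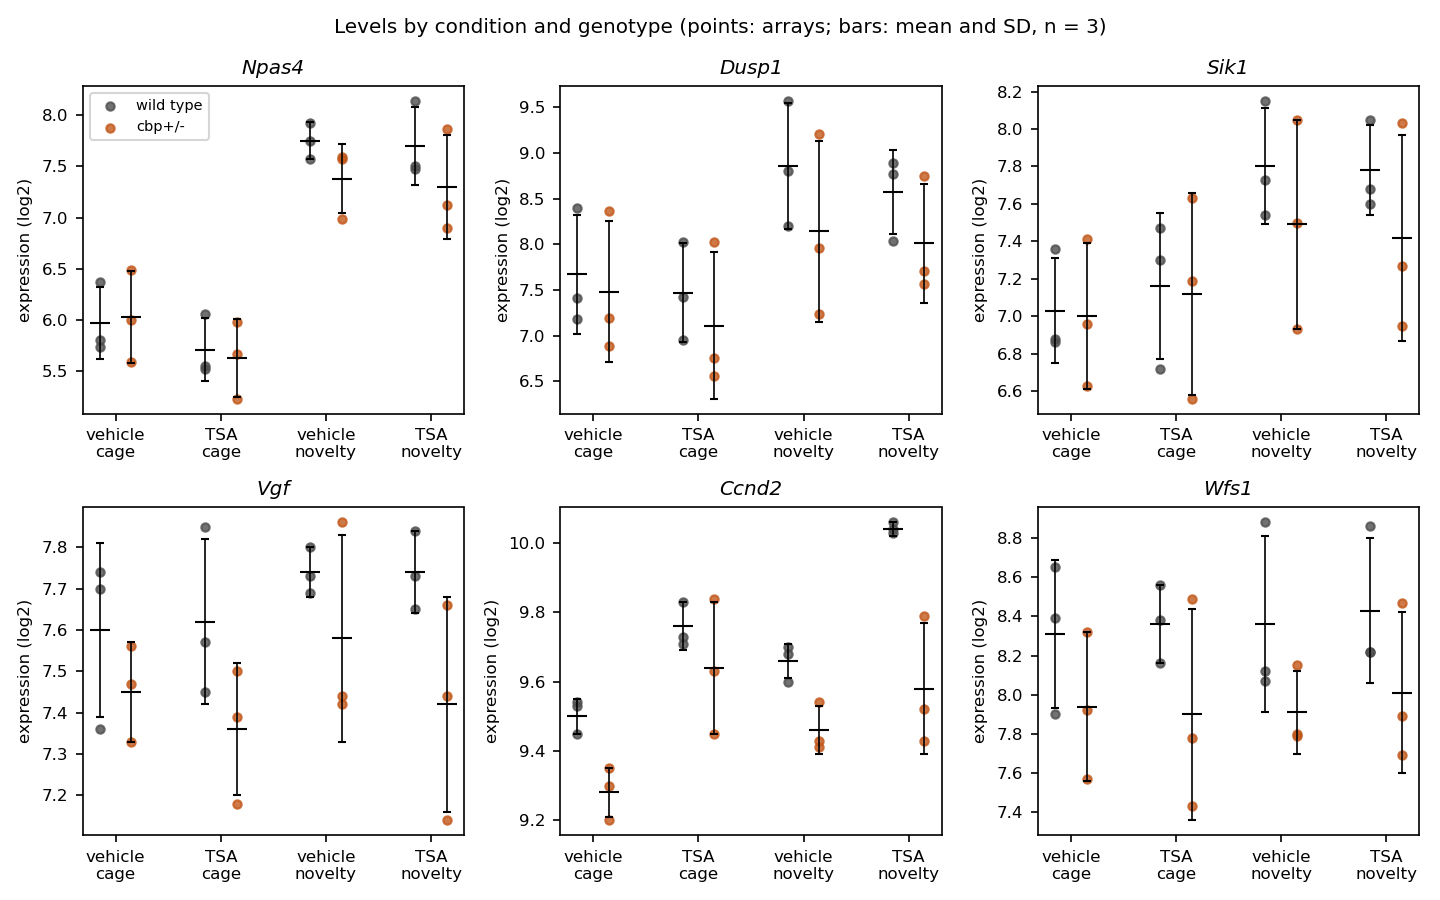
Expression (log2) of 6 genes in the 4 conditions and both genotypes; points are arrays, and bars are the mean and SD (n = 3). Npas4, Dusp1 and Sik1 are higher after novelty in both genotypes, Ccnd2 of wild type is highest with TSA plus novelty, and Wfs1 has lower cbp+/- means in all 4 conditions.

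A set of 24 genes that an earlier analysis of these same arrays had picked as responding to novelty, and which is therefore no independent evidence, had 21 members lower in cbp+/- (59.1% of all genes) and a median of -0.162, which was -0.026 with 15 lower without replicate 3. Most of these genes are also on the immediate early or effector lists, so the set is no separate group. Its pair medians were 0.024, -0.101 and -0.403. After novelty with vehicle the corresponding pair medians were 0.054, -0.096 and -0.263, and under TSA in the cage they were -0.036, 0.018 and -0.083. In both novelty conditions, then, the lower values of cbp+/- in this set were largest in replicate 3 and not seen in replicate 1. The 27 immediate early transcription factors were lower under TSA in the cage too. Their pair medians there were -0.084, -0.1 and -0.062, with 20, 20 and 18 lower. Marker genes of astrocytes also had their lowest median in pair 3 of TSA plus novelty (-0.067, 0.003 and -0.319), as did those of CA1 neurons (-0.067, -0.117 and -0.342), while cytosolic ribosomal protein genes had their highest there (-0.065, 0.042 and 0.398). The part of these shifts in the values of the activity genes was not tested.

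**Figure D5:**
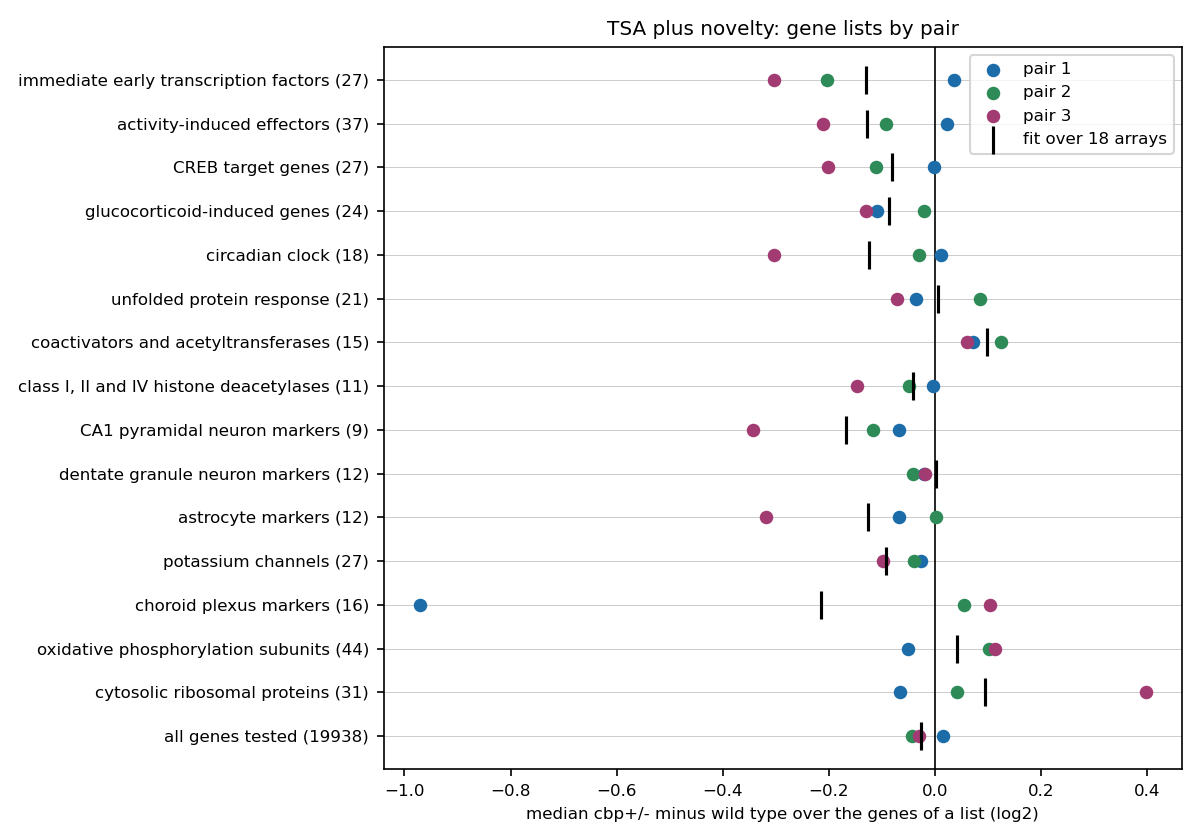
Median genotype difference (cbp+/- minus wild type, log2) over the genes of each list, shown for each pair of same-numbered arrays (points) and for the fit over 18 arrays (black bars); the number of genes is in brackets. Pair 3 has the most negative medians for activity genes, CA1 and astrocyte markers and the most positive for ribosomal protein genes, and pair 1 has the lowest median for choroid plexus markers.

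Genes long known as targets of CREB numbered 27 on the arrays, and 22 were lower, against 59.1% of all genes, with a median of -0.080. Many of them, such as Fos, Nr4a1, Dusp1, Sik1 and Vgf, are also on the immediate early or effector lists, so these lists are not independent. The pair medians of the CREB targets were -0.001, -0.110 and -0.201. Their median in the fit was -0.024 with 17 lower without wild-type replicate 3 and -0.183 without wild-type replicate 1. Penk, the enkephalin precursor, had levels of 9.0, 8.93 and 9.15 in wild type and 8.62, 7.45 and 8.85 in cbp+/-, lower without overlap (-0.72 ± 0.28, unadjusted p = 0.019, adjusted p = 0.785). Replicate 2 of cbp+/- lay far below the others, and pairs 1 and 3 differed by -0.38 and -0.30. Pdyn, the dynorphin precursor of granule cells, was lower without overlap as well (-0.27 ± 0.10). Vip, a neuropeptide of interneurons, differed by 0.20 ± 0.10.

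CREB binds the palindrome TGACGTCA, and the promoters of the activity genes were read for it. In the 250 bases before the start it was present in 1.55% of 32851 RefSeq promoters (mouse assembly GRCm38.p6), and in 364 of the 15614 tested genes with a promoter entry (2.33%). Of the genes on the lists, 7 of 28 effectors (25.0%), 6 of 21 CREB targets (28.6%) and 1 of 20 immediate early transcription factors held it. The windows below show it, in capitals, for 5 genes of these lists whose differences run from the lowest to a positive value, each with 20 bases to either side, written 5′ to 3′ on the strand of the gene.
Dusp1: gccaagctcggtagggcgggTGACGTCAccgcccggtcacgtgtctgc
Maff: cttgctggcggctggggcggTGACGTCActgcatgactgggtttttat
Btg2: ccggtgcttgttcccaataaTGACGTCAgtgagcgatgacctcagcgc
Dio2: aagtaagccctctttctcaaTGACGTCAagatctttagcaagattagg
Plk2: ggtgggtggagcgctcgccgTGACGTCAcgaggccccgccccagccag
They lie at chr17:26508588-26508635 on the minus strand (Dusp1), chr15:79347471-79347518 on the plus strand (Maff), chr1:134079294-134079341 on the minus strand (Btg2), chr12:90739106-90739153 on the minus strand (Dio2) and chr13:110394962-110395009 on the plus strand (Plk2), upstream of the first exon in each case. With the same 8 letters in the promoter, the genotype difference was -0.56 for Dusp1, -0.26 for Maff, -0.18 for Btg2, an antiproliferative transcriptional cofactor, -0.13 for Dio2 and 0.08 for Plk2, a polo-like kinase. Over all 364 genes with the palindrome the median difference was -0.024 against -0.025 for all tested genes, 55.8% were lower against 59.1%, and 7.42% had an unadjusted p under 0.05 against 6.13%. Genes with the shorter motif TGACG or its complement CGTCA, which every palindrome includes, had a median of -0.011 (3760 genes, 24.1%). All tested genes include those without a promoter entry, and the share among genes with an entry was not computed. Whether genes with these letters were more often lower was therefore not settled, and nothing follows about where CREB or CBP was bound.

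TSA-responsive genes that the earlier analysis had picked from these same arrays showed no common direction. Of 23 genes, 13 were lower, against 59.1% of all genes, with a median of -0.041. The zinc finger gene Plag1 read 5.99, 5.90 and 6.12 in wild type and 6.25, 5.80 and 5.82 in cbp+/- (-0.05 ± 0.15). Sox11, a neuronal developmental transcription factor, differed by -0.07 ± 0.13, Rest, a repressor of neuronal genes, by -0.09 ± 0.13 and the retroviral restriction gene Fv1 by -0.03 ± 0.13. Ptpn2, a tyrosine phosphatase, and Kmt5b, a histone methyltransferase, differed by 0.14 ± 0.11 and 0.15 ± 0.13. The smallest unadjusted p-values of the set were those of Epor, the erythropoietin receptor (-0.34 ± 0.14, 2 of 3 pairs), Lratd1 (0.20 ± 0.09) and Pyroxd1, an oxidoreductase (-0.21 ± 0.10).

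Markers of cell types were compared next, and in whole tissue fewer cells of a type and less RNA per cell cannot be told apart. Of 9 CA1 pyramidal markers 8 were lower in cbp+/-, against 59.1% of all genes, with a median of -0.167, and 3 were lower at an unadjusted p under 0.05, against 3.62% of all genes. Wfs1, an endoplasmic reticulum protein of CA1 neurons, read 8.86, 8.22 and 8.22 in wild type and 8.47, 7.89 and 7.69 in cbp+/-. The groups overlapped, but each pair was lower (-0.39, -0.33 and -0.53), with a difference of -0.42 ± 0.12 (1.33-fold, unadjusted p = 0.00231, adjusted p = 0.741). Its difference was nearly the same in the other conditions, at -0.44 after novelty with vehicle, -0.47 with TSA in the cage and -0.38 with vehicle in the cage. Averaged over novelty with vehicle and TSA in the cage it was -0.45 ± 0.08 (limma, adjusted p = 0.154). Mpped1 and Dcn, the latter a proteoglycan that also marks fibroblasts, were lower in 3 of 3 pairs (-0.20 ± 0.09 and -0.22 ± 0.10), and Dcn had -0.27, -0.40 and -0.27 in the other conditions in the same order. The exception was Spink8, a protease inhibitor gene, at 0.33 ± 0.17. Without replicate 3 the median of the CA1 markers was -0.038, with 5 lower.

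Dentate granule markers had a median of 0.003 over 12 genes, with Calb1 at 0.23 ± 0.11 and the enzyme gene Tdo2 at -0.24 ± 0.11. The 12 CA3 and CA2 markers had a median of -0.096 and the 15 interneuron markers -0.051, with Gad1 at -0.11 ± 0.08. Astrocyte markers were lower for 10 of 12 genes against 59.1% of all genes (median -0.125, and -0.027 without replicate 3), with Aldh1l1 at -0.22 ± 0.09 and Gfap, their intermediate filament gene, at -0.25 ± 0.13. Microglia, oligodendrocyte, endothelial and ependymal markers had medians of -0.037, 0.040, 0.029 and 0.060. The microglial receptor gene Trem2 was lower without overlap (-0.25 ± 0.12). The 8 blood and immune cell markers had a median of -0.005, with 4 higher and 4 lower. Among them Alas2, the heme synthesis enzyme of red cell precursors, read 5.27, 5.25 and 5.89 in wild type and 5.05, 5.04 and 4.84 in cbp+/- (-0.50 ± 0.14, unadjusted p = 0.00254). Choroid plexus markers were lower for 14 of 16 genes, with a median of -0.215 that came from wild-type replicate 1: pair 1 had a median of -0.971, pairs 2 and 3 had 0.055 and 0.105, and without that array the median was -0.032. Ttr differed by 0.42 ± 1.07, with -3.95 in pair 1 and 4.86 in pair 2.

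Among the channels and receptors of neurons, 21 of 27 potassium channels were lower, against 59.1% of all genes, with a median of -0.091, and 5 were lower at an unadjusted p under 0.05, against 3.62% of all genes. Without replicate 3 the median was -0.048, with 20 lower. Besides Kcna1 these included Kcnh1 (-0.31 ± 0.09), Kcnq3, a subunit of the muscarine-regulated M channel (-0.21 ± 0.09), and Kcna4 (-0.26 ± 0.11, without overlap). After novelty with vehicle 23 of the 27 were lower (46.8% of all genes), and in the cage 14 with TSA (53.5%) and 18 with vehicle (50.3%). Glutamate receptors and synaptic scaffold genes were lower for 21 of 29, against 59.1% of all genes (median -0.064, and -0.028 without replicate 3). The kainate receptor subunit Grik3 differed by -0.27 ± 0.11 and the NMDA receptor subunit Grin2b by -0.25 ± 0.10. GABA receptor genes had a median of -0.068 over 11.

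Ribosomal and mitochondrial genes had mostly higher values. Of 31 cytosolic ribosomal protein genes, 27 were higher against 40.9% of all genes (median 0.095), and 6 had an unadjusted p under 0.05, against 2.51% of all genes in that direction. Rpl24 read 10.43, 9.90 and 10.20 in wild type and 10.44, 10.50 and 10.80 in cbp+/-, higher without overlap by 0.40 ± 0.12 with no difference in pair 1 (0.00). Rps15 differed by 0.31 ± 0.10. The median of the list was 0.000 without replicate 3, with 15 higher, and ribosomal protein genes have processed pseudogenes that share their probes. Subunits of oxidative phosphorylation were higher for 36 of 44 genes, against 40.9% of all genes, with a median of 0.043. Without wild-type replicate 3 they were higher for 25 of 44 with a median of 0.018, and without replicate 2 for 27 of 44. Of these subunits Ndufb8 and Cox7b (0.33 ± 0.13 and 0.32 ± 0.12, 2 of 3 pairs each) had an unadjusted p under 0.05. The share of all genes in that direction was 2.51%. The pair medians of the subunits were -0.05, 0.102 and 0.114. After novelty with vehicle 27 of 44 were lower (median -0.043), against 46.8% of all genes. In the cage 15 were lower with TSA (against 53.5%) and 15 with vehicle (against 50.3%), with a median of 0.035 in each.

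Stress and clock genes were the last groups examined. Of 24 glucocorticoid-induced genes 17 were lower, against 59.1% of all genes (median -0.086, and -0.039 without cbp+/- replicate 3). Fam107a differed by -0.21 ± 0.09 and Tsc22d3, the leucine zipper gene GILZ, by -0.26 ± 0.17 without overlap. Some members of the list, such as Per1 and Dusp1, are also effectors counted above. Circadian clock genes were lower for 14 of 18, against 59.1% of all genes (median -0.124). Nr1d1 differed by -0.36 ± 0.15 and Cry2 by -0.29 ± 0.13, each lower in 2 of 3 pairs. The median of the clock genes was -0.303 in pair 3 against 0.011 in pair 1. Without replicate 3 the clock genes had a median of -0.058, with 11 lower. Genes of the unfolded protein response had a median of 0.006 over 21, with the chaperone gene Hspa5 at -0.10 ± 0.10, and heat shock genes 0.051 over 16, with the co-chaperone gene Chordc1 at 0.30 ± 0.13. Core and linker histone genes had a median of 0.026 over 19. The interferon-stimulated genes and the genes of antigen presentation had medians of -0.010 and -0.006.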

How the data were processed

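Pooled hippocampal RNA was hybridised to Affymetrix Mouse Gene 1.0 ST arrays. The authors deposited log2 expression values, with 1 value for each transcript cluster on each array. Per the labels' protocols the analysis used GeneSpring GX 11, and per the submitters' processing notes the method was RMA. RMA normalizes arrays to one another, so a change common to most transcripts may be reduced in these values. No genome build is stated for the array annotation.

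Of 35556 transcript clusters, 21789 had 1 gene symbol in the platform table, 1621 several and 12146 none. Of 999 genes with more than 1 cluster the brightest was kept, which left 19938 genes. The main test was limma 3.58.1 (R 4.3.3) on 18 arrays (TSA in the cage, novelty with vehicle and TSA plus novelty, both genotypes, 3 arrays each), with 1 mean per group, the replicate number as a block and eBayes. P-values are two-sided and adjusted by Benjamini-Hochberg over all genes, with a threshold of 0.05, and standard errors and intervals come from the same fit. Vehicle cage differences came from a fit of 24 arrays in which vehicle controls 3, 4 and 5 joined blocks 1, 2 and 3, an assignment found in these data earlier and not given by the labels. Over the 18 arrays, same-numbered arrays had positively correlated deviations from their group means (0.523 to 0.802, 45 pairs). Other pairs had negatively correlated ones (-0.625 to -0.073, 90 pairs), in part because deviations within a group sum to 0. The block lowered the median residual SD from 0.192 to 0.130. The number of arrays limits the precision.

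Named were the 15 genes per direction with the smallest p and 1 sign in 3 of 3 pairs, up to 4 genes per list with the smallest p, a fixed set of activity, TSA and CBP genes, the 3 genes with the smallest p of each interaction and 4 neighbours of Crebbp. Btg2 and Plk2 were added for their promoters, and Kcnj13 and Clic6 after their levels were seen; predicted genes were not named. The members and lists were chosen with earlier results of these data known. The fit was tested on simulated data. Promoter sequences are from RefSeq (GRCm38.p6), and the motifs were searched on both strands. Alternatives changed the block, the arrays, the weights, the variance prior, the normalization, the filter on dim genes and the choice of cluster, and left out each array and each replicate number.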

Additional observations from a re-analysis of the deposited data

How the results depend on the processing

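Under each of the 18 alternatives 0 genes passed between the genotypes after TSA plus novelty, and 0 in either interaction under the 17 of them that include its arrays. Without the replicate block 188 genes had an unadjusted p under 0.05 between the genotypes, against 1222 with it, and 200 and 90 in the interactions with TSA and with novelty, against 883 and 480. Leaving out arrays or replicate numbers gave 778 to 1756 such genes, the lowest without cbp+/- replicate 2, with 785 without replicate 2 in all groups, and the lowest adjusted p over all alternatives was 0.185. The average over novelty with vehicle and TSA in the cage gave 7 genes (2 higher, 5 lower) with array quality weights and 0 otherwise; the cause was not tested. Of 115 genes named with a fitted difference, 11 changed sign under some alternative. With array weights Junb became 0.011, Plag1 0.041, Fv1 0.007, Rest 0.009 and Ttr -0.361. Leaving out arrays or replicate numbers gave differences from -0.209 to 0.149 for Egr1, -0.244 to 0.035 for Egr2, -0.43 to 0.023 for Egr4, -0.165 to 0.102 for Fv1, -0.186 to 0.009 for Hspa5, -0.116 to 0.025 for Junb, -0.012 to 0.161 for Nr4a3, -0.201 to 0.125 for Plag1, -0.273 to 0.041 for Rest, -0.182 to 0.026 for Sox11 and -1.795 to 2.609 for Ttr. The number of arrays limits these values, and differences under about 0.2 could not be resolved for a typical gene even without adjustment. Larger ones, such as -0.67 for Rem2 and 1.24 for Rny1, did not pass the adjusted threshold either. A repeated quantile normalization moved the median of all genes from -0.025 to -0.002.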

Other observations

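Among 15 genes of MHC class I and antigen presentation, the nonclassical genes H2-T24 and H2-T10 differed in opposite directions after TSA plus novelty. Each did so without overlap of the arrays, against 2.75% of all genes in the lower direction and 1.62% in the higher. Both genes had levels under the median of all tested genes (6.10) in every array. H2-T24 read 5.09, 4.97 and 4.93 in wild type and 4.78, 4.84 and 4.69 in cbp+/- (-0.23 ± 0.09, adjusted p = 0.785). H2-T10 read 4.53, 4.59 and 4.35 in wild type and 4.75, 4.83 and 4.76 in cbp+/- (0.29 ± 0.12, adjusted p = 0.798). Genes of this family are near-identical, and their probes may not separate them.

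The 13767 transcript clusters without a single gene symbol were tested apart. After TSA plus novelty 0 passed between the genotypes with limma, the lowest adjusted p being 0.563, and 906 (6.58%) had an unadjusted p under 0.05. In the interactions with TSA and with novelty 0 passed as well, with 700 and 484 at an unadjusted p under 0.05.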
